A study of Mus musculus with 8 samples.

Results

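The genes described here are 10 UDP-glucuronosylation genes of mouse liver: Ugdh, the UDP-glucuronosyltransferases Ugt1a1, Ugt2a3, Ugt2b1, Ugt2b5, Ugt2b34, Ugt2b35 and Ugt2b36, and the related UDP-glycosyltransferases Ugt3a1 and Ugt3a2. They were chosen by name, and every probe set annotated to one of them was kept, which gave 14 of the 45037 probe sets tested. Of these, 11 carried 1 symbol, and the other 3 listed Ugt1a1 together with the other Ugt1a transcripts, 8 symbols in each. Liver RNA of 8 mice was hybridised to 1 array each, to ask how the liver transcriptome differs when hepatocytes lack thioredoxin reductase 1, the cytosolic selenoenzyme encoded by Txnrd1. The 4 experimental animals (numbers 69, 72, 73 and 81) were txnrd1 cond/-; albCre1, and their livers are called txnrd1-/- below. The 4 control animals (numbers 70, 71, 80 and 82) were txnrd1 cond/+; albCre0, and their livers are called txnrd1 cond/+. The albCre transgene expresses Cre recombinase from the albumin promoter in hepatocytes, so other liver cells of the txnrd1-/- mice still carried the conditional allele beside the null one. Controls had no Cre and kept 1 wild-type allele beside the conditional one, so that Cre, the null allele and gene loss differed together between the groups and cannot be told apart here. All 8 were young adult males housed singly for 10 days before afternoon harvest, and whole liver was used. The labels give no strain. In whole liver, a lower value can come from fewer cells of a type or from less RNA per cell, and these cannot be told apart.

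Glucuronidation couples glucuronic acid to bilirubin, steroid hormones, bile acids and many drugs, which makes them water soluble and ready for export into bile or urine. Ugdh, UDP-glucose 6-dehydrogenase, oxidises UDP-glucose to UDP-glucuronic acid in the cytosol. The UDP-glucuronosyltransferases sit in the endoplasmic reticulum membrane and transfer the sugar acid to the acceptor molecule. Transcripts of the Ugt1a locus each have their own first exon and share the remaining exons, whereas each Ugt2b enzyme is encoded by a separate gene of a cluster of close relatives. The Ugt3a enzymes use UDP-sugars other than UDP-glucuronic acid.

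The 4 sequences below show the upstream regions of Ugdh, Ugt2b35, Ugt2b36 and Ugt2b5. Ugdh and Ugt2b35 had the largest differences among the members. The 3 Ugt2b genes were picked first, and a 13-base run shared by their windows was then sought, so holding it does not set them apart. They are RefSeq sequences of GRCm38.p6, read 5′ to 3′ on the gene's own strand and ending at the last base before the transcript start. In Ugdh, capitals mark matches to TGACNNNGC, the core of the antioxidant response element, searched on both strands, with TGACTTAGC on the gene's strand and GCGTGGTCA on the opposite one. In the Ugt2b genes, capitals mark GTTATANTTTAAC, whose letters were taken from these windows after they were seen.
Ugdh, chr5:65435843-65436092, minus strand: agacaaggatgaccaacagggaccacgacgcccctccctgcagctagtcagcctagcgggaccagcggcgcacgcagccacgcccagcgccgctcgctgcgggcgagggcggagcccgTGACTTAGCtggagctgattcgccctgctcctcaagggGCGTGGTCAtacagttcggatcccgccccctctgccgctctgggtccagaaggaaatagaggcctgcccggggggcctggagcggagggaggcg
Ugt2b35, chr5:87000740-87000859, plus strand: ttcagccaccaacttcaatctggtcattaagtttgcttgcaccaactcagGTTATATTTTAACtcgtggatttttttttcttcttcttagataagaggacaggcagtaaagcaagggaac
Ugt2b36, chr5:87092556-87092675, minus strand: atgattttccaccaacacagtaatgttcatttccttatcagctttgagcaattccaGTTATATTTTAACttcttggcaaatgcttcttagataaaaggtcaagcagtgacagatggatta
Ugt2b5, chr5:87140341-87140460, minus strand: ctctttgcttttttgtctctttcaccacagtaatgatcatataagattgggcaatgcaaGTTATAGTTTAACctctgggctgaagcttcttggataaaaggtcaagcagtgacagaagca

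The antioxidant response element core occurred in 3338 of 32851 windows of 250 bases before a start (10.2%). Among the members, 9 of 10 had such a window, and Ugdh was the 1 that held the core, at 2 places that did not overlap. A count of 1 of 9 is near the share of all windows. Of 29 other genes of UDP-sugar and glucuronate metabolism, 23 had a window and 4 held the core: Ugcg, Slc35d1, Pgm2 and Miox. Their log2 differences, txnrd1-/- over txnrd1 cond/+, were -0.24, 0.66, -0.17 and 0.29. The run GTTATANTTTAAC occurred in 6 of the 32851 windows (0.0183%), on either strand. These belonged to Ugt2b35, Ugt2b36, Ugt2b5, Ugt2b37, Ugt2b38 and Pklr, the gene of liver-type pyruvate kinase. The 5 Ugt2b genes are close paralogs, so their shared letters are not independent of one another. A match describes letters in a window and does not show that a factor binds there.

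Values are ratios: the deposited value of a probe set in an animal is relative to about the middle of that probe set's values in the 8 animals, so that levels of different genes cannot be compared. The array medians lay between 0.997 and 0.999 in both groups. Of the 3 Txnrd1 probe sets, 1 was higher in txnrd1-/- livers, by 1.11 on the log2 scale, and the other 2 were lower, at log2 differences of -0.71 and -0.41. The position of these probes relative to the deleted part is not stated, so they do not check the genotype labels. Ratios also cannot show whether a cell type's markers were present, so the tissue label was not checked against marker levels. Over 10 marker lists of hepatocytes and other cell types, with 66 of 71 genes measured, the median log2 difference of a list lay between -0.18 and 0.05. Of 8 pericentral hepatocyte markers, 2 were higher in txnrd1-/- livers without overlap, the highest at log2 0.87, and 6 had negative differences. Over all genes, 1.13% were higher without overlap. All 8 endothelial and all 8 stellate cell markers had negative differences, with medians of -0.16 and -0.15. The geometric mean of the endothelial marker ratios was 0.817 to 1.07 in txnrd1-/- livers and 0.862 to 1.27 in txnrd1 cond/+ livers. For the stellate markers it was 0.796 to 1.11 in txnrd1-/- livers and 0.786 to 1.15 in txnrd1 cond/+ livers. The part of any of these cell types in the members' differences was not tested. In limma, 0 genes of these lists passed the adjusted threshold. At the study's thresholds 1 was higher, a pericentral hepatocyte marker, and 1 was lower, a neutrophil marker. The geometric mean of the ratios of 8 hepatocyte markers was 0.918 to 1.05 in txnrd1-/- livers and 0.996 to 1.05 in txnrd1 cond/+ livers. Of these 8, 1 was lower in txnrd1-/- livers without overlap, where 0.583% of all genes were. The differences of 6 were negative, with a median of -0.09 over the 8.

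Ugdh, the enzyme that supplies UDP-glucuronic acid, was higher in txnrd1-/- livers. Its probe set 1416308_at read 1.40, 1.36, 1.45 and 2.11 in txnrd1-/- animals 69, 72, 73 and 81, against 0.541, 0.642, 0.425 and 0.331 in txnrd1 cond/+ animals 70, 71, 80 and 82. Every txnrd1-/- liver was above every control, with animal 81 the highest and control 82 the lowest. The mean was 1.58 ± 0.353 in txnrd1-/- livers and 0.485 ± 0.136 in txnrd1 cond/+ livers (SD, n = 4 each). This is a 3.30-fold difference, or 1.72 ± 0.22 on the log2 scale (SE, limma), with a 95% interval of 2.34-fold to 4.65-fold. In limma with Benjamini-Hochberg adjustment, the adjusted p was 0.025 over the 18193 gene values and 0.053 over the 45037 probe sets. Both values rest on the same single probe set, which lay on either side of the threshold in the gene and the probe set fits. Without any 1 animal the log2 difference stayed between 1.55 and 1.87, and the gene value passed the adjusted threshold in 2 of those 8 fits, with adjusted p of 0.039 without animal 71 and 0.041 without animal 82.

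**Figure D1:**
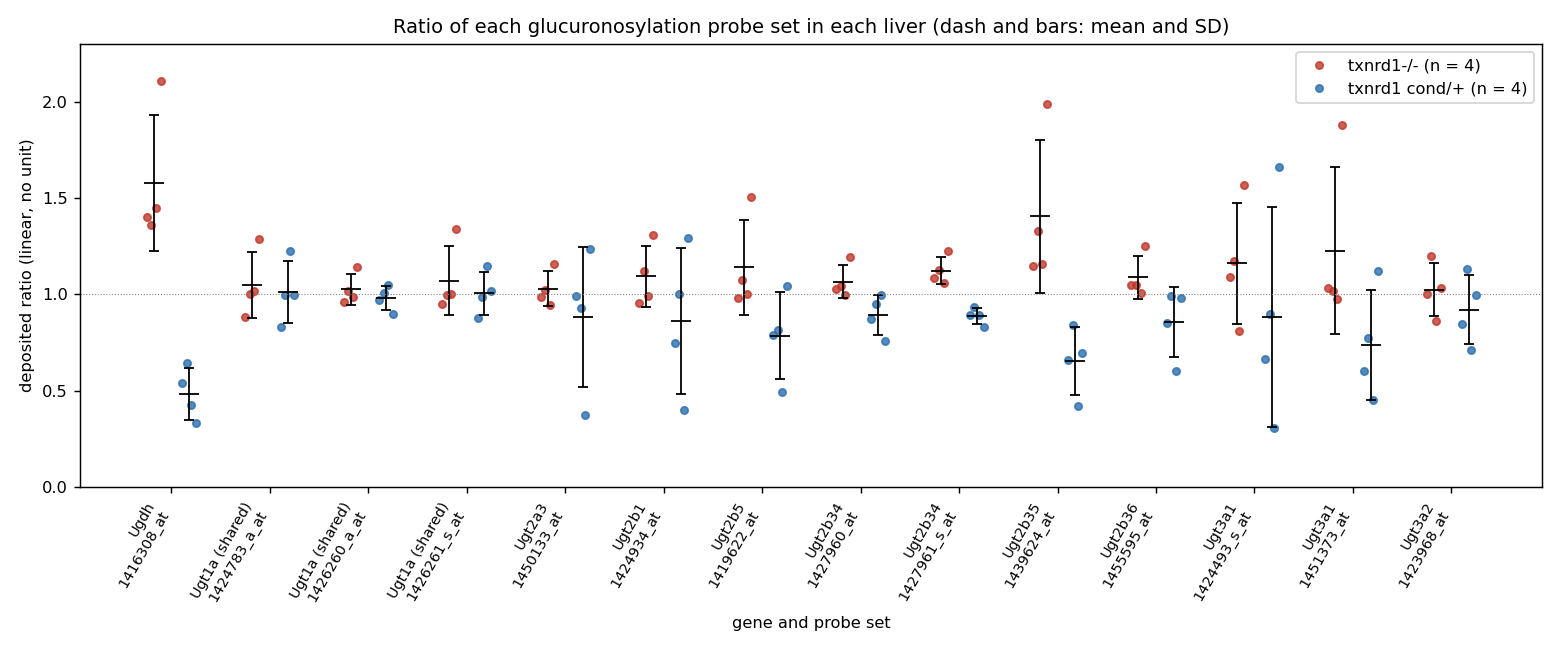
Deposited ratio (linear axis, no unit) of each of the 14 member probe sets, with the 4 txnrd1-/- livers in red on the left of each pair and the 4 txnrd1 cond/+ livers in blue on the right; points are animals, dashes are group means and bars the SD. In Ugdh the txnrd1-/- livers lay between 1.36 and 2.11 and the txnrd1 cond/+ livers between 0.331 and 0.642, whereas the Ugt1a probe sets overlapped.

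Ugt2b35, a member of the Ugt2b family of steroid and drug conjugating enzymes, had the largest difference among the transferase members. Its ratio was 1.15, 1.33, 1.16 and 1.99 in txnrd1-/- animals 69, 72, 73 and 81, against 0.658, 0.842, 0.419 and 0.698 in txnrd1 cond/+ animals 70, 71, 80 and 82. The groups did not overlap, and the lowest control was animal 80. The means were 1.41 ± 0.396 in txnrd1-/- livers and 0.654 ± 0.176 in txnrd1 cond/+ livers (SD, n = 4 each), a 2.16-fold difference (log2 1.11 ± 0.24, SE). It met the study's thresholds (a p before adjustment of 0.05 or less, and 1.5-fold), but not the adjusted threshold (adjusted p = 0.47 in limma over genes).

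The other 4 Ugt2b members differed less. Ugt2b36, which shares the 13-base run printed above with Ugt2b35 and Ugt2b5, had ratios of 1.05, 1.05, 1.01 and 1.25 in the txnrd1-/- livers, against 0.851, 0.991, 0.600 and 0.981 in the txnrd1 cond/+ livers, in the same order of animals. The groups did not overlap, by a narrow margin, and the 1.29-fold difference did not pass the p threshold in limma, before or after adjustment. Ugt2b34 was read by 2 probe sets, and in both the txnrd1-/- livers lay above the controls. Its _s_at probe set, whose probes can also pair with similar transcripts, read 1.09, 1.13, 1.06 and 1.23 in txnrd1-/- livers, against 0.893, 0.936, 0.892 and 0.833 in txnrd1 cond/+ livers. The gene value of Ugt2b34 was 1.23-fold higher (adjusted p = 1 in limma), and passed the p threshold before adjustment but not the 1.5-fold minimum.

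In Ugt2b5 the groups overlapped. It had ratios of 0.981, 1.08, 1.00 and 1.51 in txnrd1-/- livers, against 0.789, 0.817, 0.492 and 1.04 in txnrd1 cond/+ livers, a 1.48-fold difference just under the fold minimum (adjusted p = 1 in limma). It passed that minimum and met the study's thresholds with the animal-number range as a block (log2 0.60) and in 5 of the 8 fits that left out 1 animal, and did not without animals 80 and 81 (log2 0.22). Ugt2b1 overlapped as well, with ratios of 0.953, 1.12, 0.992 and 1.31 in txnrd1-/- livers and 0.750, 1.00, 0.401 and 1.29 in txnrd1 cond/+ livers. Its 1.37-fold difference passed no threshold in limma (adjusted p = 1). Ugt2b genes are close paralogs, and probes of one can take up transcripts of another, so the values of single Ugt2b genes are uncertain to that extent.

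To set Ugt2b35 against the other Ugt2b members within each liver, its ratio was divided by the geometric mean of Ugt2b1, Ugt2b5, Ugt2b34 and Ugt2b36. The paralogs Ugt2b37 and Ugt2b38 are not members and were left out of this mean. Ugt2b37 had a larger difference than Ugt2b35, at 2.37-fold with overlapping groups, and Ugt2b38 differed by 1.25-fold. The quotient therefore does not set Ugt2b35 apart from all its paralogs. The quotient was 1.14, 1.23, 1.15 and 1.51 in txnrd1-/- livers and 0.806, 0.900, 0.725 and 0.689 in txnrd1 cond/+ livers, a 1.61-fold difference. The groups did not overlap. This quotient was chosen after the values were seen, with Ugt2b35 known to differ most among the Ugt2b members. It is therefore a description only, and no p-value is given for it. Ugdh divided by Ugt2b35 was 1.22, 1.02, 1.25 and 1.06 in txnrd1-/- livers and 0.822, 0.762, 1.01 and 0.474 in txnrd1 cond/+ livers. That quotient was 1.53-fold higher in txnrd1-/- livers, likewise a description of values already seen, and the highest control lay just under the lowest txnrd1-/- liver.

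The Ugt2a and Ugt3a members overlapped between the groups. Ugt2a3, a transferase of the Ugt2a family, had ratios of 0.989, 1.03, 0.947 and 1.16 in txnrd1-/- livers, against 0.994, 0.932, 0.373 and 1.24 in txnrd1 cond/+ livers. Its 1.27-fold difference (adjusted p = 1 in limma) rested on control animal 80, without which it was -0.03 on the log2 scale. Ugt3a1 had 2 probe sets that gave different calls. The probe set 1451373_at read 1.04, 1.02, 0.976 and 1.88 in txnrd1-/- livers and 0.603, 0.776, 0.452 and 1.12 in txnrd1 cond/+ livers, which was 1.69-fold higher (adjusted p = 1 in limma) and met the study's thresholds although the groups overlapped. That call was lost without animal 81, 70 or 80, without animals 80 and 81 together, and with the variance of each feature alone. The _s_at probe set read 1.09, 1.18, 0.808 and 1.57 in txnrd1-/- livers and 0.665, 0.896, 0.308 and 1.66 in txnrd1 cond/+ livers, and passed no threshold. Averaged, the gene value of Ugt3a1 was 1.60-fold higher (adjusted p = 1 in limma), past the fold minimum but not the p threshold. Ugt3a2, its neighbour in the family, differed by 0.16 on the log2 scale.

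The Ugt1a transcripts, among them Ugt1a1, the enzyme that conjugates bilirubin, showed no difference that passed the test. The 3 probe sets are annotated to all 8 of these transcripts, so they give no value for Ugt1a1 alone. Probe set 1424783_a_at read 0.883, 1.00, 1.02 and 1.29 in txnrd1-/- livers and 0.83, 0.999, 1.22 and 0.995 in txnrd1 cond/+ livers. The log2 differences of the 3 probe sets were 0.05, 0.06 and 0.08. Their 95% intervals were -0.30 to 0.40, -0.18 to 0.31 and -0.24 to 0.41, which leave out a 1.5-fold difference in either direction. Control animal 80 was the highest control in all 3, whereas it was the lowest control in 8 of the 11 other member probe sets.

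**Figure D2:**
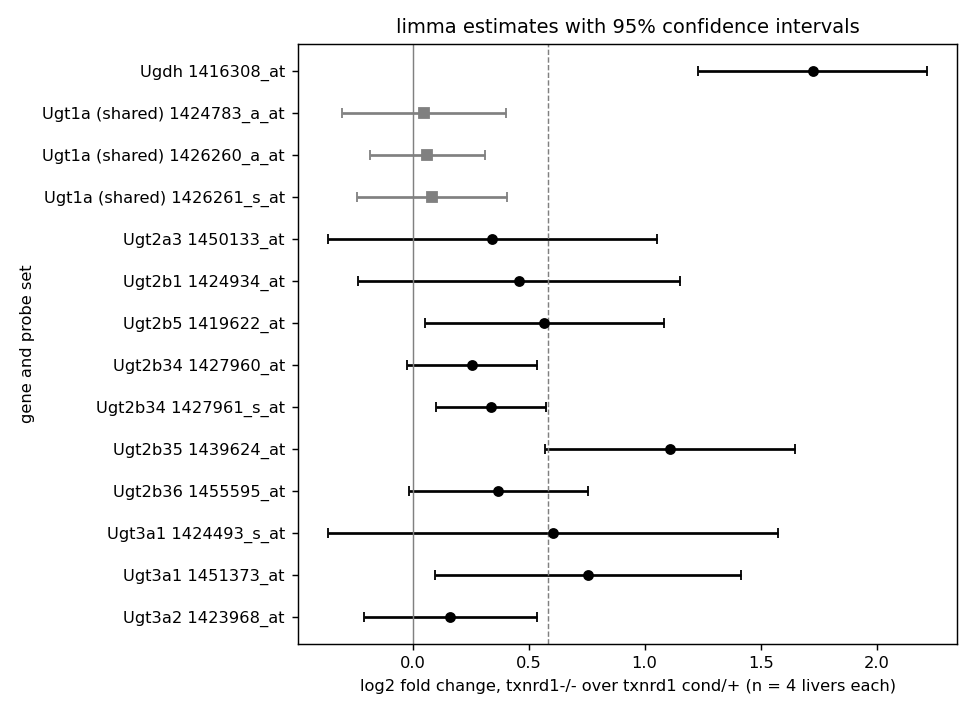
Log2 difference of each member probe set, txnrd1-/- over txnrd1 cond/+, with bars for the 95% interval from limma; grey squares are the shared Ugt1a probe sets and the dashed line marks 1.5-fold. All 14 lay above 0, from 0.05 in a Ugt1a probe set to 1.72 in Ugdh.

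Counted over the members, no probe set of 14 passed the adjusted threshold with 1.5-fold, against 0.0266% of all probe sets called higher and 0% called lower. With limma's p before adjustment at 0.05 or less, 5 of the 14 were higher and none was lower, where 1.82% of all probe sets passed in either direction. At the study's thresholds 3 were higher, those of Ugdh and Ugt2b35 and 1 of Ugt3a1, and none was lower, where 0.484% of all probe sets were higher and 0.0777% lower. In 5 of the 14 the groups did not overlap, with the txnrd1-/- livers higher, against 0.897% of all probe sets higher and 0.562% lower. The median log2 difference of the 14 was 0.36, beside 0.00 for all probe sets. Over gene values, 1 of 9, Ugdh, passed the adjusted threshold (0.0770% of all genes were called higher and 0.00550% lower), and 2 of 9, Ugdh and Ugt2b35, met the study's thresholds (0.572% higher, 0.0824% lower). Before adjustment 4 of 9 passed the p threshold (2.32% of all genes in either direction). In 4 of 9 the groups did not overlap (1.13% higher, 0.583% lower), and the median log2 difference was 0.46. Several of these probe sets read related transcripts of the same 8 livers, so they are not independent of one another.

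Single animals of either group stood high or low in most members. Txnrd1-/- animal 81 was the highest of the 8 livers in 11 of 14 member probe sets, against 13.1% of all probe sets. Control animal 80 was the lowest of the 8 in 8 of 14, against 14.5% of all. Over all probe sets other animals were extreme more often. Txnrd1-/- animal 72 was the highest in 16.9% and the lowest in 15.4%, and control 82 the highest in 16.6% and the lowest in 19.2%. Animal 80 also stood apart in liver genes known to be expressed more in males than in females. The 5 such genes taken were Hsd3b5, Slco1a1, Elovl3, Cyp4a12a and Mup3, a list chosen after the values of animal 80 were seen. The geometric mean of their ratios was 0.603, 0.530, 0.998 and 3.74 in txnrd1-/- livers, against 0.918, 1.23, 0.124 and 5.57 in txnrd1 cond/+ livers 70, 71, 80 and 82. Hsd3b5, a steroid-metabolising enzyme, was at 0.05 in animal 80 and at 5.05 in animal 82. Its part in the members' differences was not tested. Without animals 80 and 81, the log2 difference was 1.53 in Ugdh (adjusted p = 0.24 in limma over genes) and 0.73 in Ugt2b35 (adjusted p = 0.52). It was 0.28 in Ugt2b34, 0.22 in Ugt2b5, 0.14 in Ugt2b36, 0.04 in Ugt2b1, 0.17 in Ugt3a1, 0.04 in Ugt3a2 and -0.08 in Ugt2a3.

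**Figure D3:**
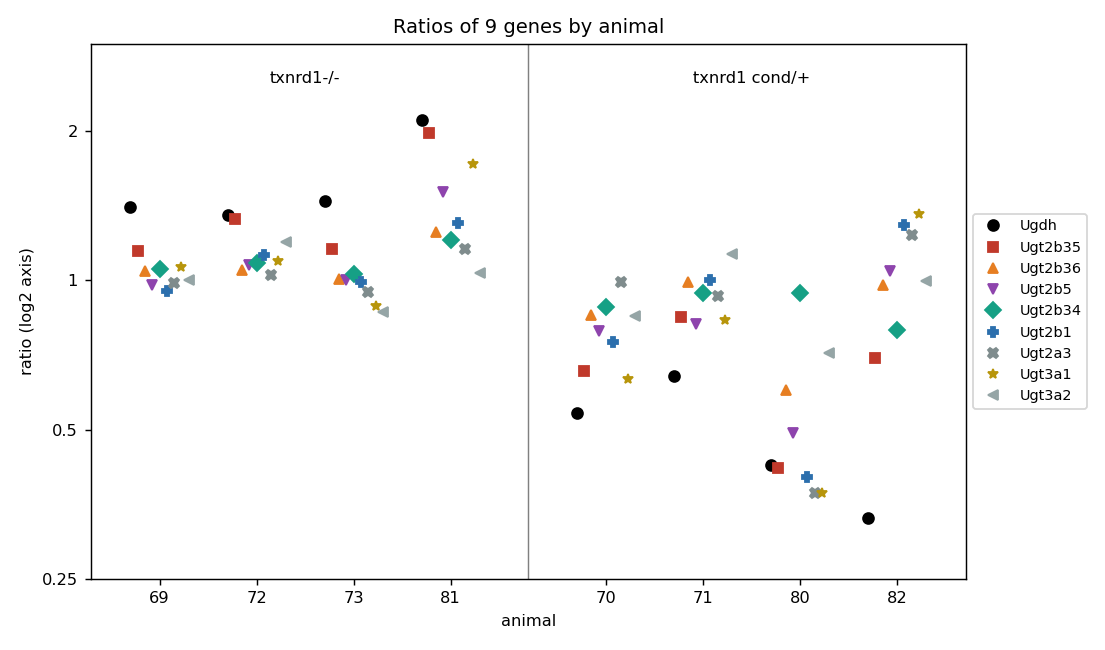
Ratio (log2 axis) of the 9 members with a gene value in each of the 8 livers, txnrd1-/- livers on the left and txnrd1 cond/+ livers on the right, with 1 symbol per gene. Animal 81 was the highest liver in 7 of the 9 and control animal 80 the lowest in 7, with Ugt2a3 at 0.373 in animal 80.

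The animal numbers fell into 2 ranges, 69 to 73 and 80 to 82, and the labels do not say what a number marks. Within 69 to 73, which holds 3 txnrd1-/- and 2 txnrd1 cond/+ livers, the log2 difference was 1.25 in Ugdh, 0.70 in Ugt2b35 and 0.34 in Ugt2b5. Within 80 to 82, where animal 81 is the only txnrd1-/- liver, it was 2.49 in Ugdh, 1.88 in Ugt2b35 and 1.07 in Ugt2b5. Both ranges gave a positive value for all 9 gene values, and the value within 80 to 82 sets 1 txnrd1-/- liver against the mean of 2 controls, with no replicate of the txnrd1-/- liver.

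**Figure D4:**
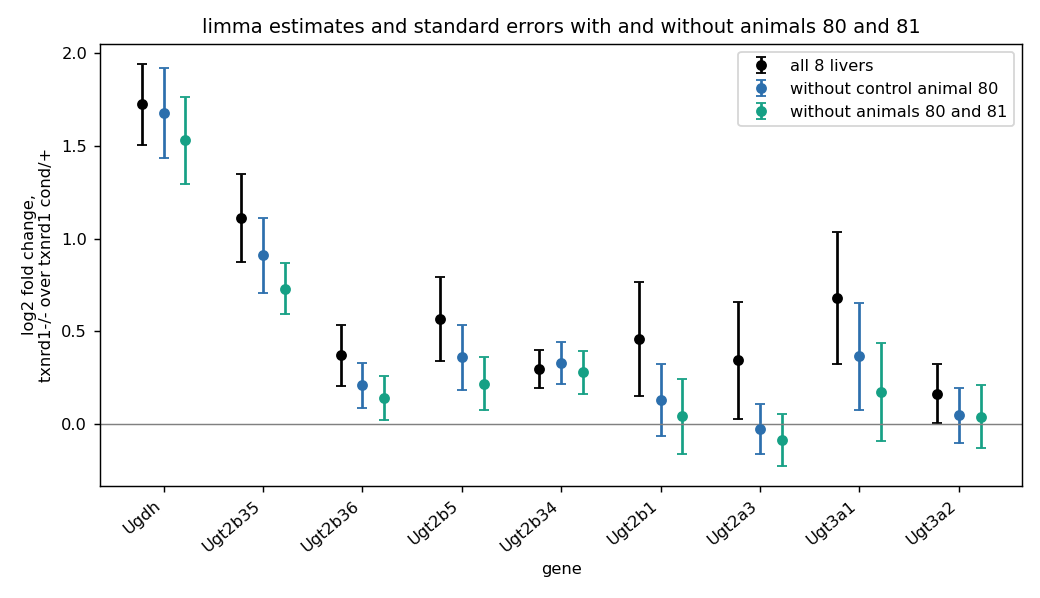
Log2 difference of each member gene, txnrd1-/- over txnrd1 cond/+, from limma with its standard error, with all 8 livers (black), without control animal 80 (blue) and without animals 80 and 81 (green). Ugdh lay between 1.53 and 1.72 in all 3 fits, whereas Ugt2a3 was at -0.08 without both animals.

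Of 29 other genes of UDP-sugar and glucuronate metabolism, 19 had a gene value of their own, and the other 10 did not. After adjustment in limma 0 of the 19 were called, against 0.0770% of all genes called higher and 0.00550% lower. At the study's thresholds 3 were higher and none was lower, where 0.572% of all genes were higher and 0.0824% lower. With limma's p before adjustment at 0.05 or less, 4 of 19 were higher and none lower, where 2.32% of all genes passed in either direction. The signs were mixed, with 12 positive and 7 negative, and the median log2 difference was 0.22. In 5 of 19 the groups did not overlap, with the txnrd1-/- livers higher, against 1.13% of all genes higher and 0.583% lower.

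Ugp2 makes UDP-glucose, the substrate of Ugdh. Its gene value was 1.05, 1.39, 1.07 and 1.40 in txnrd1-/- livers and 0.820, 0.934, 0.480 and 0.904 in txnrd1 cond/+ livers, a 1.60-fold difference (adjusted p = 1 in limma). The groups did not overlap, and this held in each of its 5 probe sets, at 1.48-fold to 1.82-fold. Slc35d1, the carrier that brings UDP-glucuronic acid into the endoplasmic reticulum, was 1.58-fold higher (adjusted p = 1 in limma). One of its 2 probe sets read 1.23, 1.17, 1.12 and 1.58 in txnrd1-/- livers and 0.83, 0.877, 0.682 and 0.763 in txnrd1 cond/+ livers, and its groups did not overlap. In the other, animal 81 stood alone at 3.87, and the other 3 txnrd1-/- livers, at 1.01, 0.967 and 1.44, overlapped the controls. The study's thresholds were no longer met by Ugp2 without control 80, or by Slc35d1 without animal 81, and neither met them without animals 80 and 81.

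Downstream of glucuronic acid, Cryl1, which oxidises gulonate on the way to the pentose phosphate pathway, had gene values of 1.10, 1.27, 1.06 and 1.23 in txnrd1-/- livers, against 0.701, 0.605, 0.596 and 1.00 in txnrd1 cond/+ livers. It was 1.63-fold higher (adjusted p = 0.70 in limma). The groups did not overlap, but its 4 probe sets ranged between 0.973-fold and 2.18-fold, and in 2 of them the groups overlapped. Akr1a1, which reduces glucuronate to gulonate, was 1.28-fold higher (adjusted p = 1 in limma), under the fold minimum. Gulo, which catalyses the last step of ascorbate synthesis in mice, differed by -0.26 on the log2 scale with overlapping groups. The paralogs Ugt2b37 and Ugt2b38 varied widely within the groups. Ugt2b37 ranged between 0.704 and 1.63 in txnrd1-/- livers and between 0.131 and 1.02 in txnrd1 cond/+ livers, and Ugt2b38 between 0.439 and 4.54 in txnrd1-/- livers and between 0.268 and 6.35 in txnrd1 cond/+ livers. Their lowest values were in control animal 80.

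**Figure D5:**
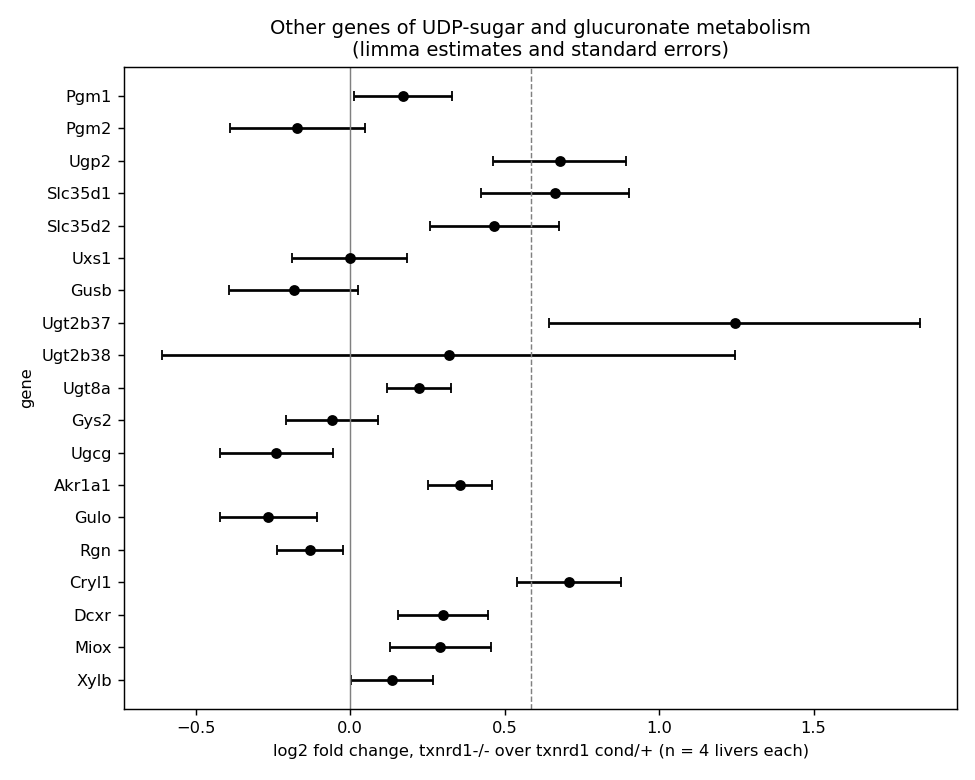
Log2 difference, txnrd1-/- over txnrd1 cond/+ (n = 4 livers each), of the 19 other UDP-sugar and glucuronate genes, with limma's standard errors; the dashed line marks 1.5-fold. Ugp2 (0.68), Slc35d1 (0.66) and Cryl1 (0.71) lay past that line, and Ugt2b37 (1.24 ± 0.60) and Ugt2b38 (0.32 ± 0.93) had the widest errors.

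The genes whose pattern over the 8 livers was most like that of Ugdh were Gstm3, Gstm4, Akr1c19, Gsta4 and Tafa2. Likeness was the root mean square difference of log2 ratios over the 8 animals, each gene centred on its own mean, from 0.169 for Gstm3 to 0.307 for Tafa2. This measure takes in the group difference, so genes near Ugdh or Ugt2b35 were bound to be higher in txnrd1-/- livers. A like pattern does not show shared control. Gstm3, Gstm4 and Gsta4 are glutathione S-transferases, and Gstm3 read 1.35, 1.69, 1.73 and 2.27 in txnrd1-/- livers, against 0.626, 0.579, 0.393 and 0.389 in txnrd1 cond/+ livers. For Ugt2b35 they were Ethe1, Blvrb, Ephx1, Pdilt and Gbe1, at 0.150 to 0.233. Ethe1 is a mitochondrial sulfur dioxygenase, Blvrb reduces biliverdin and flavins, and Ephx1 is the microsomal epoxide hydrolase. Ephx1 read 1.18, 1.21, 1.37 and 1.84 in txnrd1-/- livers and 0.700, 0.652, 0.487 and 0.812 in txnrd1 cond/+ livers.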

How the data were processed

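Total liver RNA of 8 mice was measured on 1 mouse expression array each. RMA is named in the submitters' processing notes and GeneSpring in the study's methods, and the deposited values are linear ratios. Each array's median was near 1 (0.998, 0.998, 0.999 and 0.997 in txnrd1-/- animals 69, 72, 73 and 81, and 0.998, 0.998, 0.998 and 0.997 in txnrd1 cond/+ animals 70, 71, 80 and 82). The scale and the centring of each probe set on about its median were inferred from the values, because no scanner signals were used here, and whether arrays were also centred is not stated. The ratios carry no signal level, and a minimum on signal, as in the study's methods, was therefore left out. Precision is limited by the number of arrays.

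The table held 45101 probe sets, of which 64 were array controls and were not tested. Of the remaining 45037, 34945 had 1 gene symbol, 932 several and 9160 none, by platform annotation updated through RefSeq gene names (GRCm38.p6). A gene value was the mean log2 ratio of its single-symbol probe sets (18193 genes). The 5 empty values stayed empty. Groups were compared in limma 3.58.1 (R 4.3.3) on log2 ratios with Benjamini-Hochberg adjustment over all features. A call needed an adjusted p of at most 0.05 and 1.5-fold. What the text names the study's thresholds is limma's unadjusted p of at most 0.05 and 1.5-fold, without the study's signal minimum. Over all probe sets these called 218 higher and 35 lower, including probe sets of low signal, so the calls and shares are not the study's own. The fit was also run on simulated normal noise, independent between probe sets and with the residual SDs of these data. The simulation held no animals that stood apart, so it does not bear on the part of such animals. P-values weigh the group difference against the spread between animals within the groups. In limma that variance is drawn toward a value shared over all features.

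Genes named in the text are the members, the other pathway list, Txnrd1, the 5 nearest patterns of Ugdh and of Ugt2b35, and genes said to be chosen after their values were seen. Members and lists were chosen with earlier results of these data known. Alternatives covered quantile normalization, array weights, robust and single-feature variances, a filter on spread, the hybridization controls as a covariate, the animal-number range as a block, and leaving animals out.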

Additional observations from a re-analysis of the deposited data

Results flagged for a closer look

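Each group of 4 livers was checked for a value far from the rest in the 14 member probe sets and in 4 gene values. These were Ugp2, Slc35d1, Cryl1 and Akr1a1, the other pathway genes that passed limma's p threshold before adjustment. Of these 36 groups, 4 had such a value, and in each it was the high value of txnrd1-/- animal 81. Chance flags about 5% of independent groups with normal values. These groups come from the same 8 livers and 4 genes were picked by their difference, so the count cannot be set against that share. Animal 81 was at 2.11 in Ugdh, where the gap to the next liver was 0.880 of the range of the group. It was at 1.34 in the Ugt1a probe set 1426261_s_at (0.872 of the range), at 1.88 in the Ugt3a1 probe set 1451373_at (0.935) and at 2.47 in the gene value of Slc35d1 (0.852). The cause was not tested.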

How the results depend on the processing

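The count of member probe sets called after adjustment was 0, with 1 under quantile normalization and 1 under array weights (Ugdh in both). It was 2 (Ugdh, adjusted p = 3.3e-05, and Ugt2b35, adjusted p = 0.043, in limma) when only the 22518 probe sets with a standard deviation above the median were tested, a filter that itself favours probe sets whose groups differ. It was 0 to 0 with 1 animal left out. At the study's thresholds 3 member probe sets counted, and 2 to 6 with 1 animal left out, the 6 without control 82. Ugdh and Ugt2b35 met them in all 8 of those fits. The count of member genes called was 1 (Ugdh). It was 0 with the variance of each feature alone, 0 with the animal-number range as a block, 0 without animals 80 and 81 (chosen after seeing the data), and 0 to 1 with 1 animal left out: the call was lost without 69 (adjusted p = 0.11 in limma), 72 (0.072), 73 (0.13), 81 (0.081), 70 (0.065) or 80 (0.096). The other pathway genes at the study's thresholds were 3, 2 to 4 with 1 animal left out, and 1 (Cryl1) without animals 80 and 81. Some small differences changed sign. Ugt2a3 was -0.0276 to 0.55 on the log2 scale with 1 animal left out, negative without control 80, and -0.0848 without animals 80 and 81. The Ugt1a probe set 1424783_a_at was -0.0529 to 0.15 (lowest without 81, and -0.0407 without 70), and 1426261_s_at -0.0295 to 0.15 (lowest without 81). The cause was not tested. No paired analysis was possible because the animal numbers are not shared between the groups.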

Other observations

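The deposited ratio of the 3′ probe set of Actb was divided by that of its 5′ probe set. This quotient was 0.851 to 1.07 in txnrd1-/- livers and 0.891 to 1.04 in txnrd1 cond/+ livers. For Gapdh it was 0.931 to 1.07 in txnrd1-/- livers and 0.976 to 1.09 in txnrd1 cond/+ livers. Each probe set is already relative to about its own middle, so such quotients lie near 1 whatever the RNA integrity. They compare the animals with one another and do not show that the RNA was intact. Over all 18193 genes, 235 (1.29%) were at least 1.5-fold above the other 3 txnrd1-/- livers in animal 81, and 216 (1.19%) were at least 1.5-fold below the other 3 controls in animal 80. Such counts were not made for the other animals, so they do not set these apart.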
